A study of Homo sapiens with 4 samples.

Results

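Autophagy and lysosome regulators are described here as 42 genes taken by symbol, and their m6A peaks are the rows of 2 deposited peak lists that carry those symbols. Of the 42 genes, 34 had at least 1 peak, with 48 peaks in 29 genes of the list called shNC and 54 peaks in 31 genes of the shALKBH5 list. The whole lists held 22448 and 24626 peaks, over 12779 gene symbols in all. The cells were RPMI-8226, an established human multiple myeloma line, transduced with lentivirus carrying either the hairpin shNC or a hairpin against ALKBH5, a demethylase that removes m6A from RNA. Poly(A) RNA of each condition gave 1 library enriched with an anti-m6A antibody (IP) and 1 without enrichment (input), so each list rests on 1 IP and 1 input library, no value has a replicate, and no test between conditions was possible. Whether 1 hairpin or several targeted ALKBH5, and whether the cells were a clone, was not given in the sources used here.

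Autophagy encloses cytoplasm in a double membrane that fuses with the lysosome. The ULK kinase complex starts the process, a class III phosphatidylinositol 3-kinase complex marks the membrane, lipid transfer proteins and scramblases feed it, and a conjugation cascade attaches ATG8-family proteins that bind cargo receptors. Plasma cells secrete large amounts of antibody and are known to depend on autophagy for endoplasmic reticulum turnover. TFEB and TFE3 are transcription factors that switch on lysosome genes. N6-methyladenosine is an internal mark of mRNA that is typically dense near stop codons and in long internal exons.

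Each peak has a fold, which sets IP against input over its bases, and a p-value, both the authors' own; the p is given as log10 p, so that a more negative value is stronger. They order peaks within a list, and values of the lists are set side by side below without a comparison of size. A gene that lacks a listed peak may lack the mark, be little expressed or fall under the peak caller's limit, and these cannot be told apart. Likewise, fewer cells with a mark and less mark per cell cannot be told apart in bulk RNA. As a check of the label, 7 of 8 plasma cell markers had peaks in both lists (TNFRSF17 had none), as did 1 of 4 myeloid markers, ITGAM. Of the T cell markers, 0 of 4 had a peak, and of the stromal markers PDGFRB alone had 1, in the shNC list. Peaks hold no expression level, and so the ALKBH5 knockdown itself was not checked.

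The 34 members with a peak made up 81.0% of the 42 genes (65.9 to 91.4%, exact 95% binomial interval, counting error only), against 47.7% of all RefSeq protein-coding symbols. Both shares go by the listed gene name. For some of the 34, among them ATG12, ATG4D, WIPI1 and TAX1BP1, the gene of every listed peak is uncertain, as described below. How strongly the members are expressed, compared with other genes, was not tested. Peaks in both lists were found for 26 members. ATG12, ATG14 and OPTN had peaks in the shNC list alone, which is 8.82% of members with a peak (1.86 to 23.7%) against 5.50% of all genes with a peak. ULK3, VMP1, WIPI1, ATG3 and ATG4D had peaks in the shALKBH5 list alone, which is 14.7% (4.95 to 31.1%) against 11.5%. Both intervals include the background. ULK2, BECN1, PIK3C3, GABARAP, GABARAPL1, CALCOCO2, LAMP1 and LAMP2 had no peak in either list. At WIPI1 and ATG4D, the shNC list did hold a peak at the same place, but under another gene's name, so by position the shALKBH5 list alone held peaks of 3 members, ULK3, VMP1 and ATG3. Among peaks with a log10 p of -10 or stronger, the names differ: ATG13 and ATG16L1 then stood in the shNC list alone, and ULK3, ATG4D, GABARAPL2 and TFEB in the other. Weaker peaks of ATG13 (log10 p -8.13) and ATG16L1 (-7.04) were in the shALKBH5 list. Those of GABARAPL2 (-7.39) and TFEB (-5.37) were in the shNC list, so these 4 genes changed class by the limit. The share of all genes in 1 list alone at this limit was not computed.

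**Figure D1:**
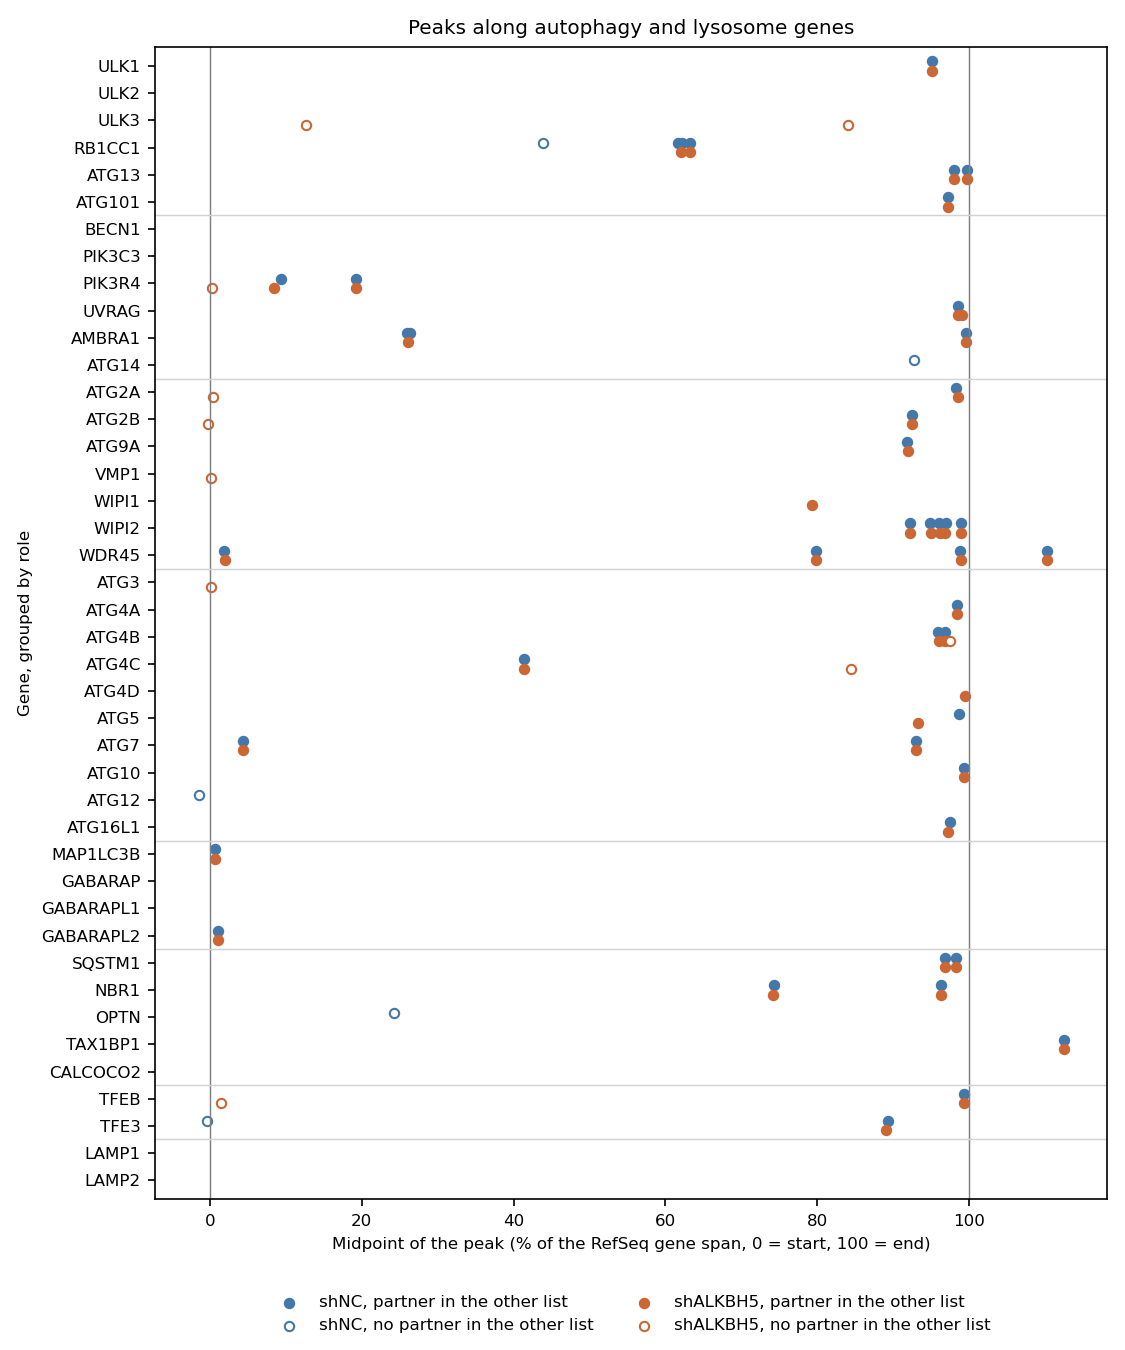
Midpoint of each peak as a percentage of the RefSeq gene span (horizontal axis, 0 at the gene start and 100 at the gene end, introns included) for the 42 genes grouped by role (vertical axis). Filled points have a partner in the other list and open points have none, with shNC in blue and shALKBH5 in orange; many points with a partner lie close to the gene end, and those of MAP1LC3B and GABARAPL2 lie at the start.

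Most positions recurred. A peak was given a partner when it shared at least 1 base with a peak of the other list, whatever the gene or strand. By that rule 5 of 48 shNC member peaks (10.4%, 3.47 to 22.7%) had no partner, against 12.6% of all shNC peaks, and 10 of 54 shALKBH5 member peaks (18.5%, 9.25 to 31.4%) had none, against 19.8% of all shALKBH5 peaks. The members' shares were thus near those of the whole lists. The 5 shNC peaks were at RB1CC1, ATG14, ATG12, OPTN and TFE3. The 10 shALKBH5 peaks were at ULK3 (2 peaks), PIK3R4, ATG2A, ATG2B, VMP1, ATG3, ATG4B, ATG4C and TFEB. Member peaks that lacked a partner had a median log10 p of -5.64 (shNC) and -5.2 (shALKBH5), against -19.2 and -26.2 for those that had one. In the whole lists the medians of peaks that lacked one were -4.21 and -4.32, against -21.3 and -23.5.

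In the initiation complex, 5 of 6 genes had a peak, with 8 peaks in each list. ULK1, the kinase that starts autophagy, had 1 peak in the same place in both lists, ending 1061 bp (shNC) and 1001 bp (shALKBH5) before the gene end. Its enrichment was 7.62-fold (log10 p -70.7) for shNC against 7.38-fold (log10 p -70.4) for shALKBH5. The ULK1 peak was stronger by p than 78.2% of shNC peaks and 79.0% of shALKBH5 peaks. ATG101, which stabilises ATG13 in the complex, had the strongest peak of the group, 150 bp before the gene end on chromosome 12, with 7.14-fold enrichment (log10 p -426) for shNC against 5.33-fold (log10 p -241) for shALKBH5. That peak was stronger by p than 96.7% of shNC peaks and 93.5% of shALKBH5 peaks, although it shares bases with a peak listed for AC025259.1. ATG13, the adaptor of the complex, had 2 peaks per list with low folds, from 1.75 to 2.2.

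RB1CC1, the large scaffold also known as FIP200, carried its peaks far from either end of the gene. In the shNC list, peaks of 600, 601 and 240 bases lay between 52656045 and 52657873 on chromosome 8 (hg38), with folds of 11.2, 14.9 and 5.1. In the shALKBH5 list the same stretch held 2 peaks of 600 and 1110 bases, with folds of 14.2 and 22. The stretch therefore carried peaks in both conditions, cut into 3 pieces in the shNC list and 2 in the other. Another shNC peak of RB1CC1, at 52673971 to 52674180, had a fold of 2.41, a log10 p of -4.53 and no partner. ULK3, a kinase related to ULK1 with roles in autophagy and Hedgehog signalling, had no shNC peak. Its stronger shALKBH5 peak, at chromosome 15, 74842177 to 74842356, began 800 bp into the gene with 3.02-fold enrichment (log10 p -17.4). Its other peak, ending 981 bp before the gene end, had 1.5-fold enrichment (log10 p -7.06). The stronger ULK3 peak had the best p of any member peak without a partner.

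In the class III kinase complex, the catalytic subunit PIK3C3 and the scaffold BECN1 had no peak, while 4 of 6 genes did. UVRAG, a subunit of the endosomal form of the complex, had a single shNC peak of 929 bases with 10.5-fold enrichment (log10 p -203). The shALKBH5 list split the same stretch into peaks of 390 and 510 bases, with folds of 8.6 and 9.77 and log10 p values of -73.9 and -126. The covered length, 929 against 900 bases, was thus close although the number of peaks went from 1 to 2. AMBRA1, an activator of BECN1, had a peak of more than a kilobase at the gene end in both lists, with 1140 bases, 17.7-fold enrichment (log10 p -144) for shNC, and 1080 bases, 13 and -125 for shALKBH5. Inside AMBRA1, 26% along the gene, 2 shNC peaks with folds of 5.89 and 4.8 faced 1 shALKBH5 peak with a fold of 7.11.

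PIK3R4, the regulatory kinase-like subunit, had its peaks in the first 20% of the gene. The stronger was spliced, with 598 bases, 11.2-fold enrichment (log10 p -59.3) for shNC and 807 bases, 22.7 and -82.4 for shALKBH5. A further PIK3R4 peak of 90 bases, 90 bp from the gene start, stood only in the shALKBH5 list, with 1.92-fold enrichment (log10 p -2.92). It was weaker by p than nearly all peaks of its list, being stronger than only 3.63% of them. ATG14, the subunit that directs the complex to autophagosome formation, had 1 peak, in the shNC list, at chromosome 14, 55369560 to 55369769, with 4.73-fold enrichment (log10 p -7.79). It lay inside the RefSeq span of FBXO34 as well, and whether reads kept their strand was not given.

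By listed name, all 7 genes of lipid supply and phosphoinositide binding had a peak. WIPI2, which binds the phosphoinositide on the forming membrane and recruits ATG16L1, had 5 peaks in each list, with midpoints from 92.2 to 99.0% along the gene, and every one had a partner. Its strongest peak, spliced between 5229738 and 5231223 on chromosome 7 in the shNC list, was the strongest of any member in both lists. It had 12.8-fold enrichment (log10 p -808) for shNC against 15.9-fold (log10 p -962) for shALKBH5, stronger by p than 98.8% and 99.3% of peaks. The other WIPI2 peaks had folds between 2.35 and 9.63 (shNC) and between 2.3 and 9.2 (shALKBH5). By contrast WIPI1, a close relative, had 1 peak, in the shALKBH5 list, with 6.56-fold enrichment (log10 p -8.99). At that place both lists held a peak named AC007780.1, on the plus strand. It had 8.47-fold enrichment (log10 p -4.56) for shNC against 4.07-fold (log10 p -4.3) for shALKBH5. The WIPI1 peak also lay in the RefSeq spans of ARSG and PRKAR1A, so its gene is uncertain. Thus the WIPI1 stretch was not bare in the shNC list.

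WDR45, the X-linked relative of WIPI1, had 4 peaks in each list, all with partners. The strongest ended 99 bp (shNC) and 9 bp (shALKBH5) before the gene end, with folds of 4.01 and 3.5 and log10 p values of -49.1 and -50.9. A weaker WDR45 peak lay past the RefSeq gene end, in PRAF2, and carries PRAF2's name too, so its gene is uncertain. The lipid transfer proteins ATG2A and ATG2B had 1 peak each in the shNC list and 2 in the other. Their shared peaks had folds of 5.9 and 7.18 (ATG2A) and 11 and 10.8 (ATG2B), for shNC and shALKBH5 in this order. The shALKBH5 list added an ATG2A peak across the gene start, at chromosome 11, 64917039 to 64917218, with 4.93-fold enrichment (log10 p -7.45). It also added an ATG2B peak wholly upstream of the RefSeq start, with 22.6-fold enrichment (log10 p -5.89). The peak of GSKIP, a neighbour on the opposite strand, covered nearly the same bases with the same fold and p, so this signal cannot be given to either gene.

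ATG9A, a scramblase carried on vesicles, had 1 peak per list with a low fold, 1.82 (shNC) and 1.51 (shALKBH5). In both lists it shares bases with a peak listed for AC068946.2. VMP1, an endoplasmic reticulum scramblase, had a single peak, in the shALKBH5 list, at chromosome 17, 59707674 to 59707823, which began 20 bp from the gene start. Its fold was 2.49 and its log10 p -4.03, stronger than 12.8% of the list.

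Each of the 10 conjugation genes had a peak by listed name, and 7 were found in both lists. The only peaks of ATG4D and ATG12 share bases with peaks of other genes, as given below. The cysteine proteases of the ATG4 family, which trim ATG8 proteins, differed among themselves. ATG4A had the second strongest peak of all members in both lists, with identical borders, 568 bases in 2 blocks ending 478 bp before the gene end on chromosome X. The ATG4A enrichment was 14.1-fold (log10 p -517) for shNC against 18.6-fold (log10 p -502) for shALKBH5. ATG4B had 2 shared peaks near its end, with folds of 4.21 and 4.46 (shNC) against 3.78 and 5.29 (shALKBH5), and a further peak of 151 bases in the shALKBH5 list alone, with 15.4-fold enrichment (log10 p -3.8). ATG4C had 1 shared peak, with folds of 2.9 and 4.27, and an shALKBH5 peak without a partner, with 9.95-fold enrichment (log10 p -5.46). The ATG4D peak, 91 bases at the very end of the gene on chromosome 19, stood under that name in the shALKBH5 list alone, with 1.97-fold enrichment (log10 p -11.1). It shared bases in both lists with a peak of KRI1, a gene on the opposite strand, with log10 p values of -191 and -170.

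ATG5 and ATG10, which lie in the branch that makes the ATG12 conjugate, each had 1 peak per list within 1676 bp of the gene end. The ATG5 peak had 8.34-fold enrichment (log10 p -325) for shNC against 5.46-fold (log10 p -225) for shALKBH5. The ATG10 peak had the same 360 bases in both lists, with 7.54-fold enrichment (log10 p -55.6) for shNC against 8.95-fold (log10 p -79.9) for shALKBH5. ATG16L1, the partner of that conjugate, had weaker peaks, with 2.88-fold enrichment (log10 p -17.1) for shNC against 2.71-fold (log10 p -7.04) for shALKBH5. ATG7, the activating enzyme of both conjugation branches, had 2 peaks per list of weak p, from -4.28 to -8.18. One ATG7 peak had a fold of 30.3 for shNC, the highest of any member, and 3.47 for shALKBH5, and the other had 17.8 and 8.14. ATG3, the conjugating enzyme for ATG8 proteins, had 1 peak, in the shALKBH5 list, across the gene start at chromosome 3, 112561896 to 112561986, in the RefSeq span of SLC35A5 too, with 4.78-fold enrichment (log10 p -4.94). The single ATG12 peak, in the shNC list, had 6.24-fold enrichment (log10 p -6.57). It lay wholly upstream of the RefSeq start, 113 to 293 bp away, and shared its bases with a peak named AP3S1 on the opposite strand, with 3.33-fold enrichment (log10 p -6.94).

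**Figure D2:**
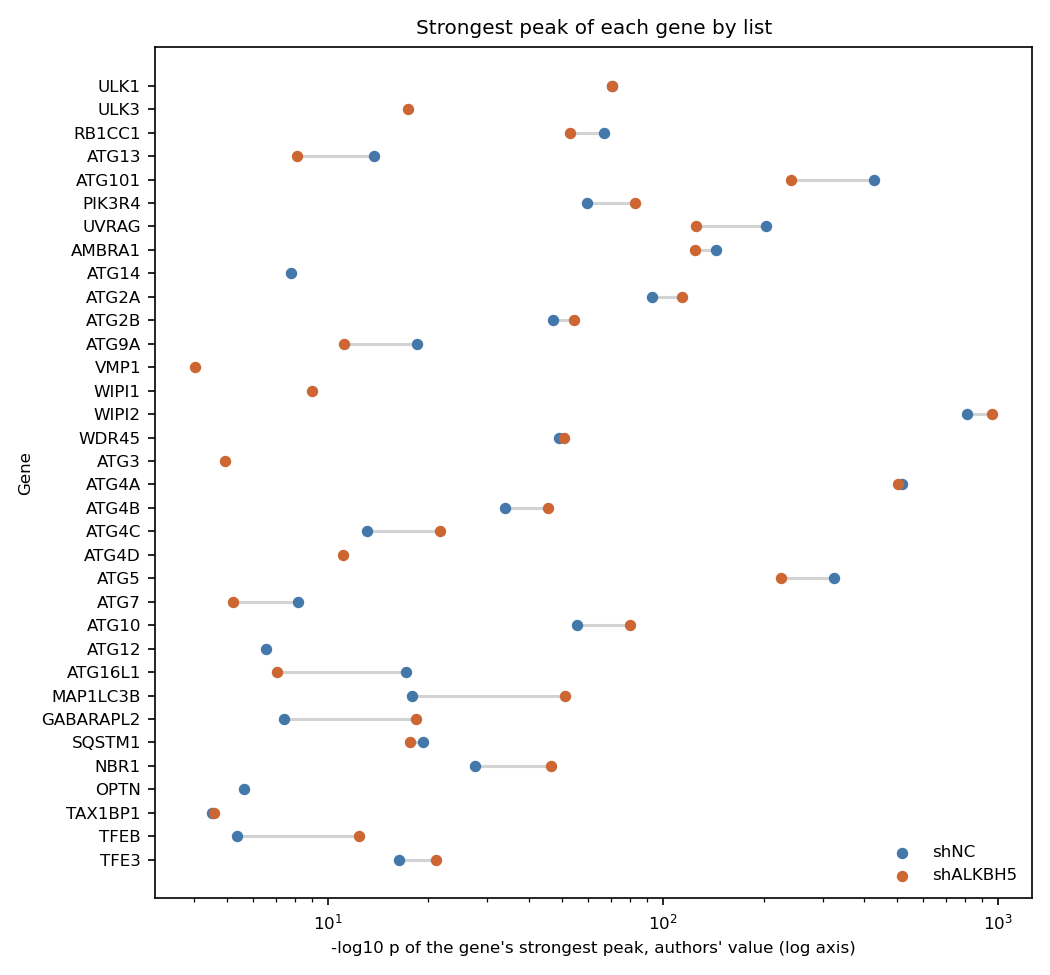
The -log10 p of the strongest peak (horizontal log axis, the authors' values) for each of the 34 genes with a peak, with shNC in blue, shALKBH5 in orange and a grey line joining genes found in both lists. WIPI2, ATG4A, ATG101 and ATG5 lie above 200 in both lists, and genes with a single point stand in 1 list.

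The ATG8 family comprises ubiquitin-like proteins that are joined to the membrane lipid. Those of its genes among the 42 had their listed peaks at gene starts. MAP1LC3B, the best known marker protein of autophagosomes, had 1 peak per list with the same borders, chromosome 16, 87392307 to 87392515, which starts 29 bp upstream of the RefSeq gene start. Its enrichment was 3.68-fold (log10 p -17.9) for shNC against 6.35-fold (log10 p -51) for shALKBH5. GABARAPL2 also had 1 peak per list at the gene start, with 1.8-fold enrichment (log10 p -7.39) for shNC against 2.82-fold (log10 p -18.3) for shALKBH5. The rank by p within the list was 52.6% for shNC and 73.9% for shALKBH5 at MAP1LC3B, and 31.7% and 54.2% at GABARAPL2, where the rank is the share of peaks that are weaker. GABARAP and GABARAPL1 had no peak. Among the 42, the family thus held 2 start peaks in each list and 0 peaks elsewhere in the genes. MAP1LC3B2, a further gene of the family read with the related genes below, had its strongest peak at the gene end in both lists. That peak had 3.36-fold enrichment (log10 p -26.2) for shNC against 4.05-fold (log10 p -24.1) for shALKBH5.

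Over all members, start peaks, which begin upstream of or less than 500 bp into the RefSeq gene, numbered 3 of 44 peaks placed on a RefSeq span for shNC (6.82%, 1.43 to 18.7%, against 11.4% of all placed shNC peaks). For shALKBH5 they numbered 7 of 51 (13.7%, 5.7 to 26.3%, against 14.5%). The shNC start peaks were at MAP1LC3B, GABARAPL2 and WDR45, and those genes had one in the shALKBH5 list too, which added ATG2A, VMP1, ATG3 and PIK3R4. All 4 added peaks had no partner, so that 4 of 9 placed shALKBH5 member peaks without a partner lay at starts (44.4%, 13.7 to 78.8%, against 27.1% of all such peaks). The interval includes the background. RefSeq gives 1 span per gene here, so another start inside a gene was not seen.

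In 4 genes a peak was found that covers the first transcribed base of the RefSeq model, and their start sites are shown since few member peaks lie there. Each line gives 30 bases around the start (RefSeq, GRCh38.p14), 5′ to 3′ on the gene's strand, with the first transcribed base in capitals.
MAP1LC3B (chr16:87392321-87392350, plus strand): gaagtggctatcgccAgagtcggattcgcc
GABARAPL2 (chr16:75566364-75566393, plus strand): tcccgcctgccgtgtAgtcgccgccgtcgc
ATG3 (chr3:112561948-112561977, minus strand): gtgccgggagagtctAgtgtcacgtgaggc
ATG2A (chr11:64917195-64917224, minus strand): cgagccgggggctctAgtgaacagcggagc
All 4 of these RefSeq models begin with A. Among 38 members with a promoter entry in RefSeq, 17 begin with A and 19 with G, and A is the first base in 44.4% of 35116 entries of all genes. The 4 genes were picked after their peaks were seen, and this is a description without a test. At GABARAPL2, the shALKBH5 peak covers the first base, whereas the shNC peak begins 2 bp after it.

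Another set of sequences shows what lies under the 2 shNC peaks that fall wholly upstream of a RefSeq start and outside any RefSeq span. Capitals mark GGAC, a core of the m6A consensus, and its reverse complement GTCC.
ATG12 (chr5:115841678-115841815, minus strand): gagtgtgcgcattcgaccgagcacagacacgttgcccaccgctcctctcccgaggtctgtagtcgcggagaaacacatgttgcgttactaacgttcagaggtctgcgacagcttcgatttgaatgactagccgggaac
TFE3 (chrX:49043366-49043456, minus strand): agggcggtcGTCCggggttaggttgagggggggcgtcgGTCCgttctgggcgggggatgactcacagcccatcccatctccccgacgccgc
The ATG12 stretch, 138 bases of the peak within the promoter entry, held neither form, which 39.6% (GGAC) and 40.6% (GTCC) of all promoter entries hold in the same window. The TFE3 stretch, the whole peak of 91 bases, held GTCC at 2 places and no GGAC, each of which 27.9% of entries hold there. Only these letters were searched, on both strands, and the forms do not overlap here because neither stretch held GGAC.

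Of the 5 cargo receptors, 4 had a peak. SQSTM1, which encodes the receptor p62, had 2 peaks per list that ended less than 1000 bp before the gene end, with folds of 1.22 and 2.17 (shNC) against 1.19 and 2.17 (shALKBH5). The log10 p of the second SQSTM1 peak was -19.2 and -17.6. All 4 share bases with peaks named MRNIP. NBR1, a related receptor, had 2 shared peaks, the stronger of them spliced and 74% along the gene, with 2.57-fold enrichment (log10 p -27.5) for shNC against 2.88-fold (log10 p -46.4) for shALKBH5. OPTN, a receptor for mitochondria and bacteria, had 1 peak, in the shNC list, spliced between 13109163 and 13109526 on chromosome 10, with 2.79-fold enrichment (log10 p -5.64). TAX1BP1 had a peak in both lists with folds of 17.8 and 18.1, but it lay 11383 bp (shNC) and 11473 bp (shALKBH5) past the RefSeq gene end, in JAZF1. It was the only TAX1BP1 peak of each list, so its gene is uncertain. By its listed name, TAX1BP1 is still counted among the members with peaks in both lists. CALCOCO2 had no peak.

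TFEB, the master regulator of lysosome genes, had a peak at its gene end in both lists, with 210 bases, 4.36-fold enrichment (log10 p -5.37) for shNC and 300 bases, 6.66 and -12.4 for shALKBH5. An additional TFEB peak of 91 bases, which begins 710 bp into the gene, stood in the shALKBH5 list alone with 13.6-fold enrichment (log10 p -3.29). TFE3 had a shared peak with 5.04-fold enrichment (log10 p -16.3) for shNC against 4.96-fold (log10 p -21.1) for shALKBH5. The upstream TFE3 peak shown above, in the shNC list alone, had 14.3-fold enrichment (log10 p -3.5). The extra peak of each factor was thus among the weakest by p, stronger than 6.26% (TFEB) and 7.29% (TFE3) of its list. LAMP1 and LAMP2, which coat the inner face of the lysosomal membrane, had no peak in either list.

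**Figure D3:**
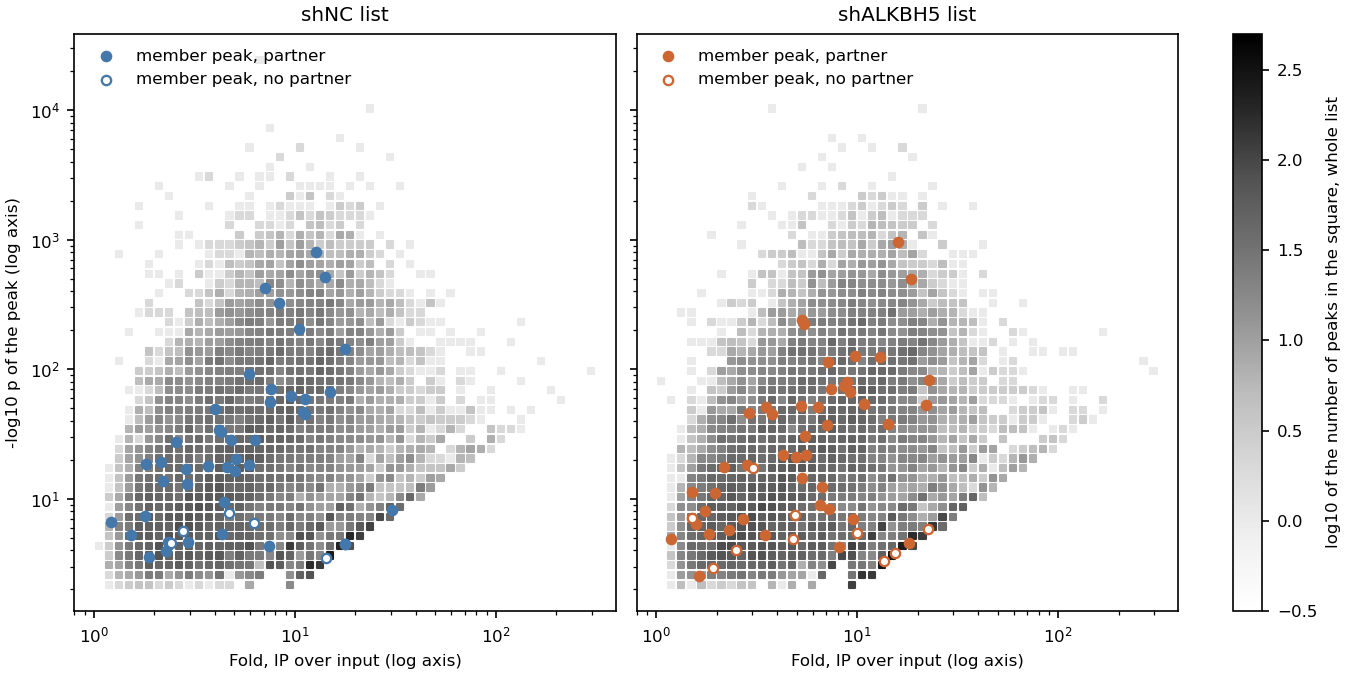
Fold of IP over input (horizontal log axis) against -log10 p (vertical log axis) for all peaks of each list as grey squares, darker where more peaks fall, with member peaks as coloured points, filled with a partner and open without. Member peaks with a fold of 13 or more and a log10 p weaker than -10 lie on the lower right edge of the grey area, among them ATG7 at 30.3 in the shNC list.

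High folds of members did not go with strong p throughout. In all, 8 member peaks had a fold of at least 13 with a log10 p weaker than -10, at ATG7 (2 peaks), TAX1BP1 and TFE3 for shNC and at ATG2B, ATG4B, TAX1BP1 and TFEB for shALKBH5. The exact pair of fold and p recurred in their list. The pair at 17.8 and -4.52, which ATG7 and TAX1BP1 share, occurs in 81 shNC peaks, and the pair of the TFE3 peak in 132. The pairs of ATG4B and TFEB occur in 125 shALKBH5 peaks each, that of TAX1BP1 in 96 and that of ATG2B in 47. The ATG7 pair at 30.3 recurs in 19. Read counts were not used here, and what these repeats stand for was not tested. The share of all peaks with a fold of at least 13 and a log10 p weaker than -10 was not computed. The count of 8 member peaks thus has no background here. By the repeats above, such peaks also occur outside the members.

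By p, 28 of 48 shNC member peaks (58.3%, 43.2 to 72.4%) and 28 of 54 shALKBH5 member peaks (51.9%, 37.8 to 65.7%) fell in the stronger 50% of their list. By fold, 18 (37.5%, 24.0 to 52.6%) and 23 (42.6%, 29.2 to 56.8%) fell in the higher 50%. The median fold of member peaks was 4.92 (shNC) and 5.49 (shALKBH5), against 6.54 and 6.64 over the lists. Member peaks were thus spread over the stronger and the weaker part of each list.

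Most placed member peaks were in neither the start nor the end class. These were 29 of 44 for shNC (65.9%, 50.1 to 79.5%) and 30 of 51 for shALKBH5 (58.8%, 44.2 to 72.4%). The share over all placed peaks is given for the start and end classes only. Gene ends held a share of the member peaks near that of the whole lists. Of placed member peaks, 12 of 44 for shNC (27.3%, 15.0 to 42.8%, against 23.0% of all placed peaks) and 14 of 51 for shALKBH5 (27.5%, 15.9 to 41.7%, against 22.0%) ended less than 1000 bp before the gene end. With a limit of 3000 bp, chosen after the positions were seen, 25 of 44 (56.8%, 41.0 to 71.7%, against 44.1%) and 29 of 51 (56.9%, 42.2 to 70.7%, against 42.2%) did. The lower bounds lie below or at the background, and peaks of 1 gene are not independent. Outside the RefSeq span lay 4 shNC and 3 shALKBH5 member peaks, at ATG12, TFE3, TAX1BP1 and WDR45 for shNC and at ATG2B, TAX1BP1 and WDR45 for shALKBH5. Of all member peaks, 6 (shNC) and 8 (shALKBH5) share bases with a peak of another gene in the same list. The same share over all peaks was not computed, so these counts have no background here.

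Among the 26 members in both lists, 16 had the same number of peaks, 7 had more in the shALKBH5 list and 3 had more in the shNC list. The 3 were AMBRA1, where 2 shNC pieces faced 1 peak, TFE3, which has the upstream shNC peak, and RB1CC1, where 2 shNC pieces faced 1 peak and a further shNC peak had no partner. Covered length was larger in the shALKBH5 list for 14 genes, larger in the shNC list for 9 and the same for 3. The same counts over all genes in both lists were not made, so these counts have no background here. As a whole the shALKBH5 list was the longer, with 24626 peaks against 22448. TFEB had 210 bases covered in the shNC list and 391 in the other, ATG4C 241 and 390, PIK3R4 897 and 1226, and ATG2A 509 and 749. In the opposite direction, ATG16L1 had 270 and 181, and WIPI2 1919 and 1739. Peaks with the same borders in both lists numbered 6, at ATG10, ATG4A, ATG4B, MAP1LC3B, RB1CC1 and WDR45. The same count over all peaks was not made, so the 6 have no background here. With 1 list per condition, the spread of these lengths between cultures is unknown.

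**Figure D4:**
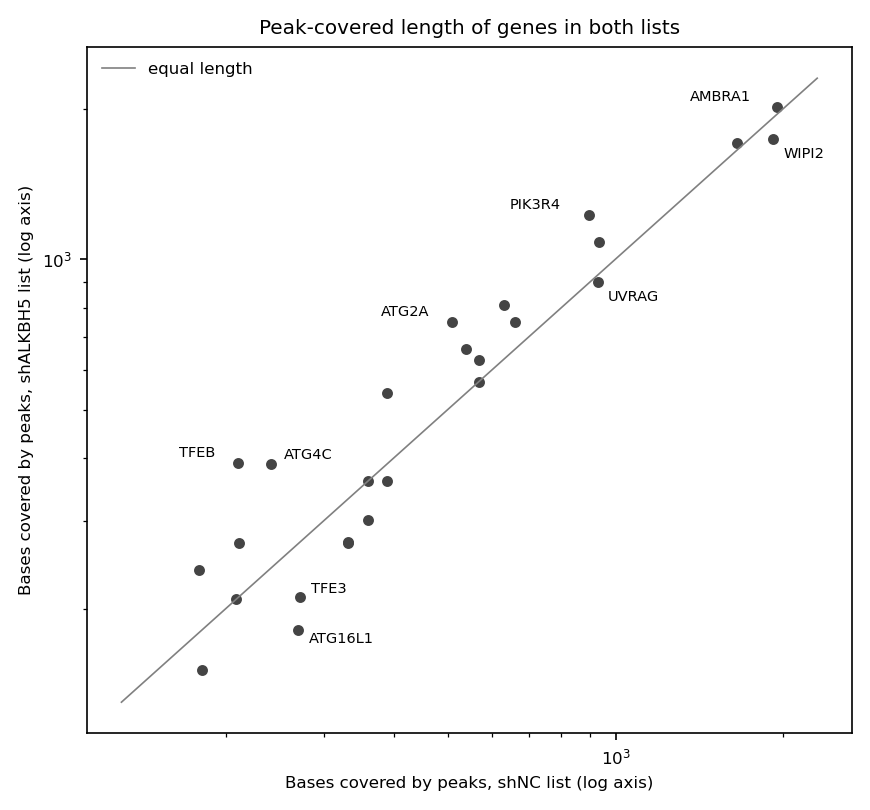
Bases covered by peaks of each of the 26 genes found in both lists, shNC list on the horizontal and shALKBH5 list on the vertical axis, both log axes, with a line at equal length. Points lie on both sides of the line, 14 above it, 9 below it and 3 on it, with TFEB and ATG4C far above and ATG16L1 below.

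The wider pathway was read from 106 related genes that are not among the 42. Of these, 77 had a peak (72.6%, 63.1 to 80.9%, against 47.7% of all RefSeq protein-coding symbols), and 67 had one in both lists. In the shNC list alone stood 3 of the 77 (3.90%, 0.811 to 11%, against 5.50% of all genes with a peak), and in the shALKBH5 list alone 7 (9.09%, 3.73 to 17.8%, against 11.5%). Both intervals for 1 list alone include the background. Of 34 further autophagy genes, 22 had peaks in both lists, with BNIP3 and DRAM1 in the shNC list alone and PHB2 and WDFY3 in the other. Of 35 genes of mTORC1 and AMPK control, the nutrient-sensing arm that acts on ULK1, 24 had peaks in both lists, and DEPDC5, LAMTOR1 and LAMTOR5 had them in the shALKBH5 list alone. Of 37 lysosome genes, 21 had peaks in both lists, with CTSS in the shNC list alone and CTSD and PSAP in the other. Of the 106 genes, the 4 with the strongest shNC peak by p were the lysosomal proteases CTSC, CTSB and CTSZ, and RUBCN, a negative regulator of autophagy that binds the class III kinase complex. CTSC had a log10 p of -2530 (shNC) and -2090 (shALKBH5), CTSB -1670 and -1400, CTSZ -1200 and -921, and RUBCN -374 and -404. Of the 7 related genes in the shALKBH5 list alone, 5 had their strongest peak at the gene start (CTSD, PSAP, LAMTOR1, LAMTOR5 and PHB2), while those of DEPDC5 and WDFY3 lay inside the gene. Among the 5 members in that list alone, VMP1 and ATG3 had it at the start, and ULK3, WIPI1 and ATG4D did not. These shares, 71.4% (29.0 to 96.3%) and 40.0% (5.27 to 85.3%), stand against 30.8% of all genes of the shALKBH5 list alone whose strongest peak was placed, which both intervals include. The log10 p values of the 5 related start peaks ran from -4.32 at LAMTOR1 to -23.7 at PHB2.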

How the data were processed

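Poly(A) RNA was sequenced as 1 IP and 1 input library per condition, 4 libraries in all. Build hg38 and the tools HOMER 4.9.1, BWA 0.7.12 and fastp 0.19.11 are listed, per the submitters' processing notes, with no roles. The peak caller was not given in the sources used here. Per the file headers, each deposited peak has blocks, strand, gene, a p-value (in a column named score, equal to 10 to the power of the log10 p within rounding), a log10 p and log10 FDR, read as scores, and a fold, the ratio of IP over input. Values belong to 1 list per condition. With no counts of reads in the tables, depth is unknown. Deposited starts were raised by 1, so coordinates count from 1.

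Members were matched by symbol. Genes here are symbols as the authors' tables give them. Peaks were placed on RefSeq spans of GRCh38.p14, by current symbol or an older one that fits 1 gene, if chromosome and bases overlapped, and all 42 members matched. Promoter entries run from 250 bases before to 50 after the start, and 38 members matched. The partner and position steps recovered all planted calls on simulated data (100%, 2000 peaks and 1000 positions). Those peaks had 1 block each and their gene spans were supplied. Spliced peaks, peaks that share bases with another gene's peak and the placement on RefSeq spans were thus not tried. Python 3.11.15, pandas 2.3.3, numpy 2.4.6, SciPy 1.17.1 and matplotlib 3.10.9 were used. The rule named members in 1 list alone, members with a peak without a partner, the 8 members with the strongest peaks, and, of related genes, those in 1 list alone and the 4 strongest by p in the shNC list. The members, lists and rules were chosen with earlier results of these data known.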

Additional observations from a re-analysis of the deposited data

How the results depend on the processing

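Of 65 values under alternative settings, 57 stayed within 1.5 times the value given and 8 did not. With peaks limited to a log10 p of -10 or stronger, member peaks without a partner fell to 2 for shNC and 4 for shALKBH5, and start peaks to 1 and 2. The genes changed too: ATG13 and ATG16L1 then stood in the shNC list alone, and ULK3, ATG4D, GABARAPL2 and TFEB in the shALKBH5 list alone. Apart from ULK3 and ATG4D, each of these had a weaker peak of its name in the other list. With a fold of at least 2 times the lowest of the list, shALKBH5 peaks at gene ends fell to 8, and GABARAPL2 replaced ATG4D among genes of the shALKBH5 list alone. With a reciprocal overlap of 50%, shNC peaks without a partner rose to 8. Ranked by fold instead of p, 18 shNC member peaks lay in the stronger 50%. With a peak of any gene at the same place counted, a choice made after seeing the data, 3 members stood in the shALKBH5 list alone. A partner within 200 bp or on the same strand, merging within 100 bp, lists of equal length and narrower start (200 bp) and end (500 bp) classes moved no count by more than 1.5 times. The overlap settings have no bearing on counts of genes. The first 2 limits keep fewer peaks and the reciprocal overlap is a stricter rule. The cause of the other shifts was not tested. No paired analysis was possible because each kind of library has 1 sample per condition, and no replicate could be left out.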
